A study of Mus musculus with 4 samples.

Results

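The small nuclear RNA (snRNA) genes of the mouse were followed in libraries of ribosome-protected RNA, as the extract protocol describes them, from primary myoblasts, the muscle precursor cells that grow from satellite cells in culture. A member was any row of the deposited table with the biotype snRNA whose mean over the 4 libraries was at least 1 RPKM (a read count corrected for the length of the gene and the size of the library). This held for 134 of the 1385 snRNA rows, out of 55573 rows in all. The other 1251 rows were listed at 0 in all 4 libraries, so the threshold separated rows with any read from rows with none. The rows just inside it were Gm22958, a U2-like row with a mean of 1.50 RPKM, and Gm23972, a U1-like row with 1.67 RPKM. Each of them held 1 read, in the first library labelled KO, and there was no row just outside, since none lay between 0 and 1 RPKM. Because the values of these libraries chose the members, the level of the set is a description.

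The 4 libraries were 2 from wild-type (WT) cells and 2 labelled as an eIF5A knockout (KO), all collected on day 2 of proliferation in medium with FGF and treated with cycloheximide, which holds ribosomes on the RNA. The sample titles call them Polysome-Seq, while the extract protocol in the labels describes fragments that ribosomes protect from RNase I, and the cycloheximide time in the labels is that of the study's polysome profiling rather than of its ribosome profiling. The assay therefore rests on the extract protocol. eIF5A is a translation factor that helps ribosomes through difficult peptide bonds and at the end of the reading frame. The study's text describes deletion of a floxed Eif5a by tamoxifen through CreERT2 expressed from Pax7, a gene of satellite cells, in mice 3 weeks old, with littermates as WT. Only cells that expressed Pax7 at induction could then lose the gene. The labels give no animal for a library, so the spread between libraries may be technical.

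The snRNAs are short, stable nuclear RNAs that form the spliceosome together with proteins. U1 pairs with the 5′ splice site and U2 with the branch point, after which a particle of U4, U6 and U5 joins and the catalytic centre forms from U2 and U6. A minor spliceosome uses U11, U12, U4atac and U6atac in place of U1, U2, U4 and U6 and shares U5, while U7 serves the 3′ ends of histone mRNAs and takes no part in splicing. None of these RNAs codes for protein, and the mouse genome holds many copies of them, some transcribed and many of them pseudogenes.

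The recovered reads came to between 642429 and 704006 per library. The targeted gene, Eif5a, did not separate the groups, with 50 and 73 reads in the WT libraries and 130 and 114 in the libraries labelled KO, or 34.9 and 65.2 against 60.3 and 59.4 RPKM (log2 fold change 0.32, standard error (SE) 0.48, limma adjusted p = 0.839). Those 2 libraries are therefore called "labelled KO" throughout. The study reports checks of the knockout in satellite cells by RT-PCR, immunostaining and a western blot for eIF5A, none of them on these libraries. Of 10 myoblast markers, all had reads, with a summed level of 211 to 346 RPKM in WT and 118 to 133 RPKM in the libraries labelled KO. One of them was Myod1, a transcription factor of muscle precursors. It had 140 and 117 RPKM in WT versus 48.6 and 79.8 in the libraries labelled KO, so its groups did lie apart. Both libraries labelled KO also lay below both WT libraries for Chrna1, Des, Pax7, Myf5 and Myog. Pax7, for example, had 8.49 and 3.62 against 0.941 and 1.48 RPKM. For Myf5 and Myog the gap rests on few reads, with 4 and 3 in their lower WT library. Cdh15, Itga7 and Msc did not lie apart. Only Vcam1, a cell adhesion protein, lay apart in the opposite direction. Its mean was 8.57 ± 4.46 RPKM in WT against 16.5 ± 4.97 in the libraries labelled KO (SD, n = 2). All of these markers were named after their values were seen. The 8 fibroblast markers summed to 270 to 461 RPKM in WT and 346 to 775 RPKM in the libraries labelled KO, the 5 endothelial markers to 99.8 to 106 and 112 to 139 RPKM, and the 5 immune markers to at most 38.5 RPKM in any library, with no marker at 0 in every library. Protein-coding genes took 41.5% and 33.9% of the reads in WT versus 65.4% and 59.2% in the libraries labelled KO, mitochondrial rRNA genes 39.1% and 30.1% against 15.0% and 18.5%, and miRNA genes 4.30% and 16.8% against 2.31% and 2.85%. The part of these differences in the results that follow was not tested.

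Only 11 snRNA rows carry a name that tells the snRNA, so each row was also placed in a class by its sequence. The RNA sequences were those of GENCODE M21 on GRCm38, which gave one for 1383 of the 1385 rows and had the table's coordinates and length for 134 of 134 members. The first set shows U1, because it held most reads. Rnu1a1 (chr11:87422867-87423030, plus strand) is the named gene, and the capitals in the other lines mark bases that differ from it or are added, while missing bases leave no mark. Gm22513 (chr12:54696782-54696945, plus strand) and Gm25587 (chr10:105040273-105040438, plus strand) were the copies with most reads, and Gm22739 (chr10:4484234-4484393, plus strand) was a copy in which the start of the RNA, the part of U1 that pairs with the 5′ splice site, was altered.
Rnu1a1: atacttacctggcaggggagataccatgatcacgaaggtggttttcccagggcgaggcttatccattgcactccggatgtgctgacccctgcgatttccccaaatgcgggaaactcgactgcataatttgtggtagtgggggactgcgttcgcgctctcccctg
Gm22513: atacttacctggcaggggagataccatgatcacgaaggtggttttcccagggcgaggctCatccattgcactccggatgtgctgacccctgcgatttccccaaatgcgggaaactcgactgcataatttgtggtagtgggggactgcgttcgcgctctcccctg
Gm25587: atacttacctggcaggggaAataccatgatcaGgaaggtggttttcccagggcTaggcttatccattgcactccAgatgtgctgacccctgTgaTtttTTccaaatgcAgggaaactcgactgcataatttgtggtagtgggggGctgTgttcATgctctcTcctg
Gm22739: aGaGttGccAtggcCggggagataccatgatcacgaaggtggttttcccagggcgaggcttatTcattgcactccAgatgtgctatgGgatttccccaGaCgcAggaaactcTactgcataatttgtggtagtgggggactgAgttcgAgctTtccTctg

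Counted from 1 at the 5′ end of Rnu1a1, Gm22513 differed by the single change T60C, and Gm25587 by 12 substitutions and 2 added bases. A further copy on chromosome 12, Gm24305, 37609 bases from Gm22513, differed by the single change A26G. The letters ACTTACC, searched on the RNA strand in the first 15 bases, were held by 27 of the 80 U1-like members and by 62 of all 210 U1-like rows. The same search found them in 25.7% of all snRNA rows longer than 150 and up to 200 bases. Gm25587, Gm22513 and Gm24305 held them, and Gm22739 did not, with changes T2G, C4G and A7G at its start.

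For U2 the named gene is Rnu2-10 (chr11:101658238-101658428, plus strand). Gm25360 (chr1:72226240-72226430, plus strand) was the U2-like row with most reads, and Gm22970 (chr14:99773623-99773808, minus strand) the one with the largest difference between groups among U2-like members with at least 20 reads. Capitals again mark bases that differ from the named gene.
Rnu2-10: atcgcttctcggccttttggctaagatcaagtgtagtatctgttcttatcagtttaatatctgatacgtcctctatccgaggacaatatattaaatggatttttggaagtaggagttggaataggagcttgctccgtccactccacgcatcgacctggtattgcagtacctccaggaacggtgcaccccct
Gm25360: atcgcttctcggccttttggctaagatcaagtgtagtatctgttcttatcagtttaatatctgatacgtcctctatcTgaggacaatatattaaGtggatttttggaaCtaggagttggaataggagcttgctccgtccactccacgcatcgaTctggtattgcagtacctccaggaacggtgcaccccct
Gm22970: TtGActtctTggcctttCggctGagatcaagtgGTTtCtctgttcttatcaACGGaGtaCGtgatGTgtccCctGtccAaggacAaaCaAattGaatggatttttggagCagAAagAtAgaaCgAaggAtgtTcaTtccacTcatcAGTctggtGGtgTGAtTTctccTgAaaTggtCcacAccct

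Gm25360 differed from Rnu2-10 at 4 positions (C78T, A95G, G109C and C154T). Gm22970 was a distant copy, with 50 substitutions and 70.4% identity. Gm26316 on chromosome 11 differed from Rnu2-10 by C170T alone.

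U5 was the one core snRNA with reads on a named row, Rnu5g, which lies on chromosome 9 beside a second U5-like row, Gm25313.

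The last set shows the snRNAs with few reads. Gm24265 (chr5:115489459-115489599, plus strand) and Gm24407 (chr5:115490254-115490394, plus strand) were the only U4-like members and differed by G88A and C99A, marked in capitals in the second. Gm25541 (chr2:27539805-27539930, minus strand) held 94 of the 95 reads of the U6atac-like rows, and Rnu12 (chr15:83149644-83149794, plus strand) is the named U12 gene.
Gm24265: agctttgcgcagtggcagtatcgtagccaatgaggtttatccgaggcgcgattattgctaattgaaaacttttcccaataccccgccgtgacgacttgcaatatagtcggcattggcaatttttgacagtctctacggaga
Gm24407: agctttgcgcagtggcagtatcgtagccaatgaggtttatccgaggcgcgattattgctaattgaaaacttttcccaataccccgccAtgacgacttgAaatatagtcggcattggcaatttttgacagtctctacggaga
Gm25541: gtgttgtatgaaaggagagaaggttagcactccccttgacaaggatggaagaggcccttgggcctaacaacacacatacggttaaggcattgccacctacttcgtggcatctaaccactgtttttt
Rnu12: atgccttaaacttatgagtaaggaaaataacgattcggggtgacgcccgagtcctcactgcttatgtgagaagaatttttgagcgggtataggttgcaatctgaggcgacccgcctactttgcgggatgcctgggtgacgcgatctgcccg

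By sequence, U1-like rows held 34355 reads over the 4 libraries, or 77.4% of all snRNA reads, on 80 members of 210 rows. U2-like rows held 8400 reads (18.9%) on 19 of 54 rows, and U5-like rows 1369 reads (3.08%) on 10 of 11 rows. The remaining classes were thinly read. U6atac-like rows held 95 reads, U4-like rows 77, U12-like rows 51, U11-like rows 20, U6-like rows 16 and U7-like rows 7, and 1 member with 1 read matched no class. U6 was the extreme case, with 8 members among 962 rows although it is as much part of the spliceosome as U1.

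The reads were concentrated on few rows. Gm25587 alone held 29.2% of the U1-like reads and the 3 highest U1-like rows 67.6%. Gm25360 held 69.3% of the U2-like reads. At the other end, 84 members had fewer than 20 reads over the 4 libraries, 28 of them a single read, and 50 had at least 20.

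The named genes of U1, U2 and U6 were listed at 0 in every library. This held for Rnu1a1, Rnu1b1, Rnu1b2, Rnu1b6, Rnu2-10 and Rnu6, and also for Rnu6-ps2, Rnu7 and Rnu11, which left Rnu5g and Rnu12 as the 2 named rows with reads. To set this beside the sequences, each RNA was read in stretches of 30 bases, about the length of a ribosome-protected fragment, and a stretch was called distinct if no other snRNA row held it on either strand. Copies in the genome outside the annotation were not checked. Rnu1a1 had 0 distinct stretches of 135 and is 1 of 7 identical rows, and Rnu2-10 had 0 of 162 and is 1 of 4. Rnu6 had 0 of 78 and is 1 of 43. Rnu5g had 12 distinct stretches of 87 and Rnu12 15 of 122.

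Over all classes, the 126 rows with no distinct stretch held 12 reads together. These lay on 2 U2-like members, Gm23444 with 9 reads and Gm23849, identical to Rnu2-10, with 3. The 15 U1-like and 105 U6-like rows of this kind had 0 reads. By contrast, 18690 reads lay on the 213 rows with up to 50% distinct stretches, 23951 on the 366 rows above 50% but not wholly distinct, and 1738 on the 678 wholly distinct rows. Distinct sequence did not go with reads everywhere. Of 412 wholly distinct U6-like rows 4 were members, and Rnu11 with 85 of 105 distinct stretches and Rnu7 with 25 of 33 had 0 reads. How the authors counted a read that matches several places, and whether they used its strand, is not given in the sources used here, so a value of a near-identical copy is uncertain and a row listed at 0 may have been transcribed.

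**Figure D1:**
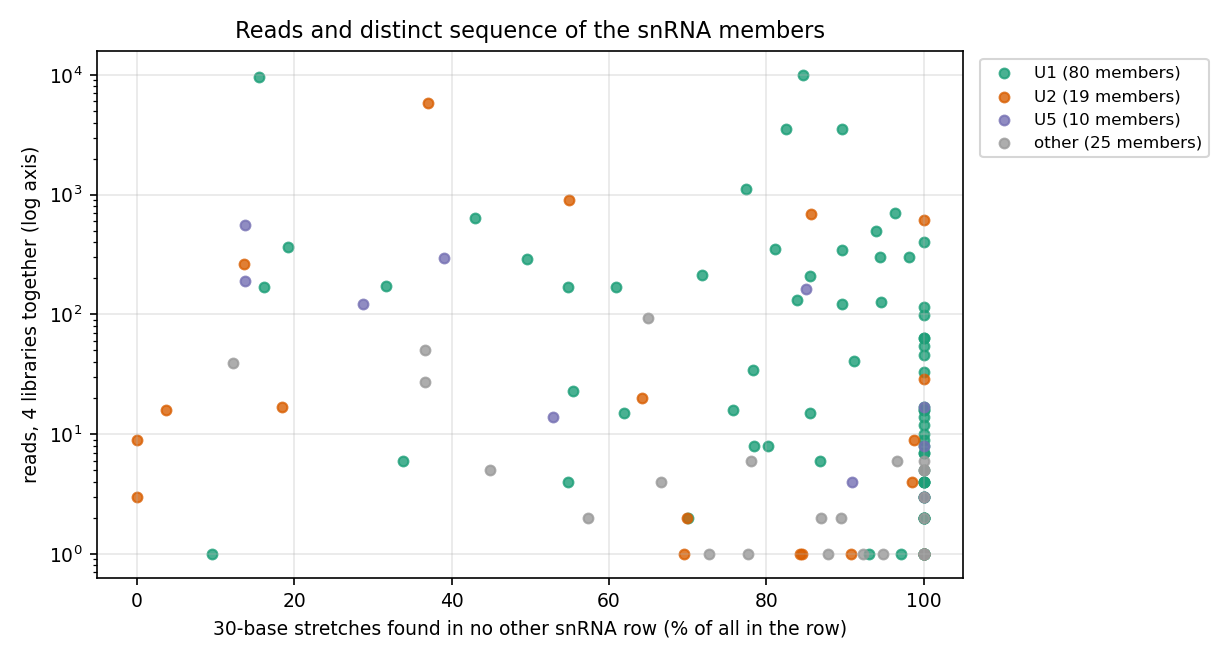
Reads of each of the 134 snRNA members over the 4 libraries together (vertical, log axis) against the share of its 30-base stretches found in no other snRNA row (horizontal, in percent). Points are coloured by the snRNA they resemble. Gm22513, at upper left, held 9642 reads with 21 distinct stretches of 135, and Gm25587, at upper right, 10036 reads with 116 of 137.

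Most members lay apart from other genes. No annotated gene overlapped 82 of the 134, 36 lay in an intron on the same strand, 15 in an intron on the opposite strand and 1, Gm26505, over an exon of Tmco5b. Among the 10 members with the highest mean level, Gm22739 lay in an intron of Ccdc170, Gm23510 in an intron of Frmd4b and Gm22970 in an intron of Gm37093, all on the same strand, and Gm25313 in an intron on the opposite strand. Reads of those rows and of unspliced host transcripts cannot be told apart, for Gm25313 unless the counting used strand.

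The comparison of libraries labelled KO with WT used limma on log2(RPKM + 1) over the 11363 genes whose mean reached 1 RPKM. It called 2 members lower at an adjusted p under 0.05, against a background of 0.0968% of all tested genes, and 0 higher (background 0.0088%). Before adjustment, limma put 30 of the 134 lower at p under 0.05 (background 4.46%) and 2 higher (background 2.86%), the latter being Gm22984 and Gm25703, which each had 1 read in each library labelled KO and 0 in WT. The median log2 fold change of the members was -1.38 (-0.79 without the first WT library), where the median of all tested genes was 0.00026. Of the members, 30 had reads in WT only and 18 in libraries labelled KO only, and such rows pass the filter through 1 group alone.

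The 2 called members, Gm24145 and Gm25514, were U1-like rows with almost no reads, all of them in WT, so both entered the test through that group alone. Gm24145, in an intron of Zc3h7a, had 4 and 4 reads in WT versus 0 and 0 in the libraries labelled KO (adjusted p = 0.0313 by limma). Gm25514 had 4 and 2 reads in WT and also 0 and 0 (adjusted p = 0.0313 by limma). Each call rests on fewer than 10 reads, the kind of gene on which limma at this scale made false calls in simulated data, and in the 10 alternative settings that tested these rows the adjusted p of limma lay between 0.0516 and 0.354.

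The 50 members with at least 20 reads give the firmer picture. Of these, 48 had a log2 fold change below 0, against 47.8% of all tested genes with as many reads, and their median was -1.38. The other 2 were Gm22739 (0.87, SE 1.24) and the U5-like Gm22265 (0.12, SE 0.73), the second named after its values were seen. In 38 of the 50, or 76.0%, both libraries labelled KO lay below both WT libraries (background 21.0%), and in 0 both lay above (background 22.7%). With only such genes in the fit, limma called 0 members after adjustment, while before adjustment 23 were lower at p under 0.05 (background 5.43%) and 0 higher (background 4.01%). The same direction was common outside the family. Of the 393 other genes that do not code for protein, 84.0% lay below 0, with a median of -1.05. Of the 244 other genes of at most 200 bases, 90.6% did, with a median of -1.40. Both libraries labelled KO lay below both WT libraries in 53.2% of the former set and 61.9% of the latter. They lay above both in 3.56% and 0.820%. A difference particular to snRNAs is therefore not shown.

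**Figure D2:**
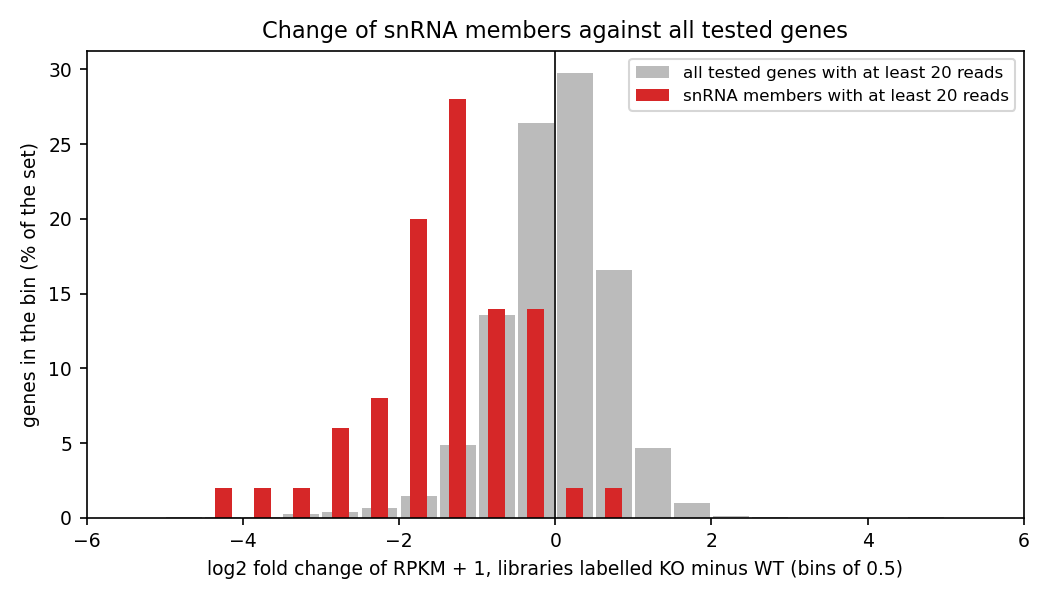
Distribution of the log2 fold change of RPKM + 1, libraries labelled KO minus WT, in bins of 0.5, for the 50 snRNA members with at least 20 reads (red) and for all 8962 tested genes with at least 20 reads (grey), each as a percentage of its set. The snRNA members centre on -1.38 and all tested genes on 0.03, and 2 members lie above 0.

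The scale mattered for this direction. The RPKM rest on library sizes of 602863 and 471136 in WT versus 906990 and 807705 in the libraries labelled KO, which are below the read totals in WT and above them in the others, and which hold the typical gene level. As a share of all reads, snRNAs took 2.56% (95% Wilson interval 2.52 to 2.59%) and 1.39% (1.36 to 1.42%) in WT versus 1.30% (1.28 to 1.33%) and 1.50% (1.47 to 1.53%) in the libraries labelled KO. The second WT library lay between the 2 libraries labelled KO, so the groups overlapped, and p was 0.667 by the two-sided exact permutation test, where 2 against 2 libraries cannot go below 0.33. Of genes that do not code for protein, snRNAs took 4.37% and 2.10% of the reads in WT versus 3.76% and 3.68% in the libraries labelled KO. With every library brought to the same sum of reads, the median of all genes moved to 0.47 and that of the members to -0.81. Copy by copy, on the share of all reads, 20 of the 50 members with at least 20 reads still had both libraries labelled KO below both WT libraries (background 6.33%), 0 had both above (background 48.4%), and in 30 the groups overlapped. Both backgrounds cover all tested genes with at least 20 reads, most of which code for protein. The intervals cover counting error only, since reads copied by PCR are not independent molecules. The libraries were prepared for fragments that ribosomes protect, so reads on an snRNA, which codes for no protein, do not directly measure its amount. Fewer cells that hold an RNA, less RNA per cell and a different recovery during preparation cannot be told apart in such bulk libraries.

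U1 copies at the top of the range were not called, and their libraries spread widely. Gm25587 had 4097 and 1996 reads in WT versus 1888 and 2055 in the libraries labelled KO, or 40939 and 25522 against 12540 and 15327 RPKM. Gm22513 had 4300 and 1583 reads in WT versus 2458 and 1301 in the others, or 43492 and 20488 against 16525 and 9822 RPKM. In RPKM both libraries labelled KO were below both WT libraries for each copy, whereas in reads the groups overlapped. The log2 fold changes were -1.22 (SE 0.93) and -1.23 (SE 0.98), and limma gave adjusted p of 0.712 and 0.720.

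Other abundant U1-like rows overlapped in RPKM as well. Gm22456, a short copy of 125 bases that lacks the 5′ end, had 15008 and 9067 RPKM in WT versus 7197 and 10667 in the libraries labelled KO (log2 fold change -0.41, SE 0.85). Gm22155 had 3266 and 2620 against 1667 and 2629 RPKM (-0.48, SE 0.69), and Gm23510 had 2025 and 1484 against 1177 and 1618 RPKM (-0.33, SE 0.64). For these 3 rows the value of the second library labelled KO lay above the lower WT value, and with the same sum of reads in each library their log2 fold changes were 0.20, 0.13 and 0.29.

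Gm22739 was the one U1-like row with at least 20 reads whose log2 fold change lay above 0. It had 1298 and 97 reads in WT versus 1230 and 885 in the libraries labelled KO, or 13457 and 1287 against 8476 and 6848 RPKM. The single low library was the second WT library, and the log2 fold change of 0.87 (SE 1.24) turned to -0.82 without it. Its share of the U1-like reads was 9.46% and 1.69% in WT versus 15.6% and 12.7% in the libraries labelled KO.

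The U1-like rows with the lowest unadjusted p were less abundant. Gm26442, in an intron of Veph1, had 1832 and 1096 RPKM in WT versus 216 and 178 in the libraries labelled KO, from 169 and 79 against 30 and 22 reads (log2 fold change -2.85, SE 0.58, limma adjusted p = 0.506). Gm22220, in an intron of 1700104L18Rik, had 969 and 727 against 88.8 and 166 RPKM, from 87 and 51 against 12 and 20 reads (-2.78, SE 0.57, limma adjusted p = 0.514). In both rows the groups were far apart, as they were in the next 2.

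Gm23796 had 384 and 279 RPKM in WT versus 13.8 and 23.2 in the libraries labelled KO, from 37 and 21 against 2 and 3 reads, with the lowest unadjusted p of the members with at least 20 reads (log2 fold change -4.12, SE 0.49, limma adjusted p = 0.107). Gm24032 had 428 and 587 against 90.1 and 140 RPKM (-2.15, SE 0.53, limma adjusted p = 0.601). Gm24305, named here after its values were seen because it is the near copy of Gm22513, had 2124 and 828 against 518 and 106 RPKM (-2.50, SE 0.94, limma adjusted p = 0.672). Both of its libraries labelled KO lay below both WT libraries.

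**Figure D3:**
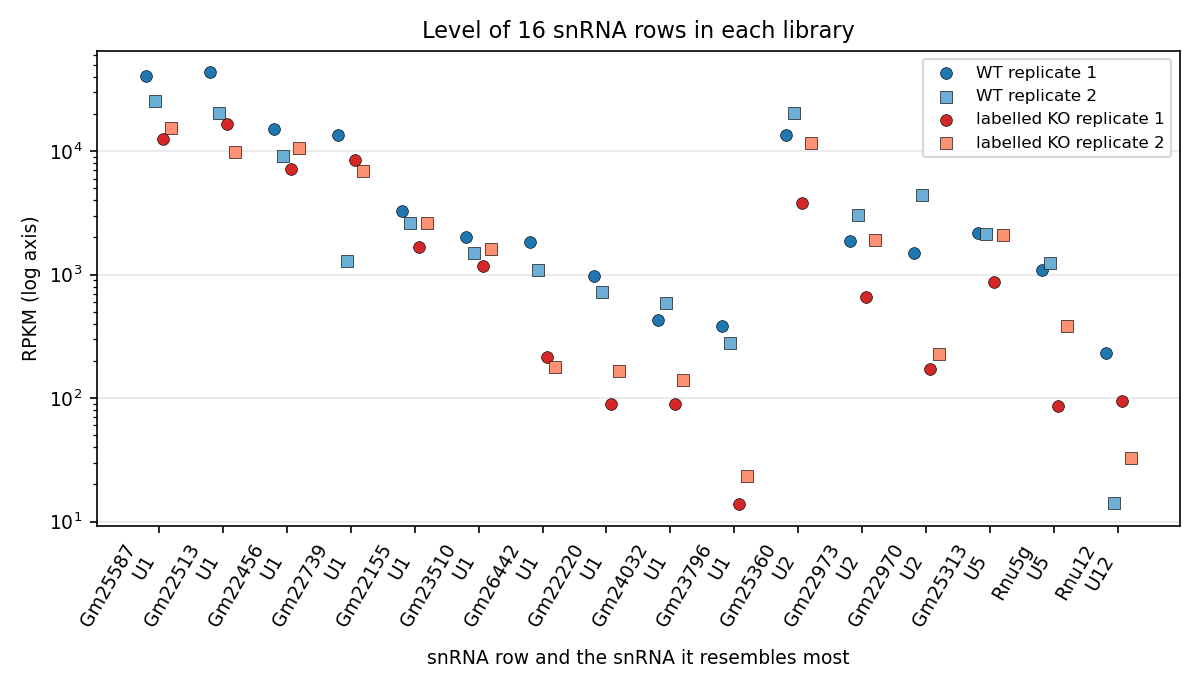
RPKM (log axis) of 16 snRNA rows in each of the 4 libraries, grouped by the snRNA they resemble. Blue marks are WT and red marks the libraries labelled KO, with circles for replicate 1 and squares for replicate 2. The groups lie apart for Gm25587, Gm22513, Gm25360, Gm26442, Gm22220, Gm24032, Gm23796, Gm22970 and Rnu5g, and narrowly for Gm25313. They overlap for Gm22456, Gm22739, Gm22155, Gm23510, Gm22973 and Rnu12.

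U1-like rows with and without the 5′ letters ran in the same direction. Of the U1-like members with at least 20 reads, all 15 with ACTTACC at the start lay below 0, with a median log2 fold change of -1.41, and 18 of the 19 without it, with a median of -1.10. Rows outside any gene and rows in introns also ran the same way. The 31 members that overlapped no gene had a median of -1.41, and the 14 in an intron on the same strand had -1.31.

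Among U2-like rows, Gm25360 had 1556 and 1825 reads in WT versus 655 and 1788 in the libraries labelled KO, or 13513 and 20281 against 3781 and 11590 RPKM (log2 fold change -1.32, SE 0.95, limma adjusted p = 0.706). Gm22973 had 1876 and 3056 against 664 and 1899 RPKM, and its groups overlapped (-1.09, SE 0.78). In both rows the first library labelled KO was the lowest of the 4.

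Gm22970, the distant U2 copy, in an intron of Gm37093, had 168 and 384 reads in WT versus 29 and 34 in the libraries labelled KO, or 1498 and 4382 against 172 and 226 RPKM. The log2 fold change was -3.69 (SE 0.72, limma adjusted p = 0.471), and all 157 of its stretches were distinct. Gm26316, the near copy of Rnu2-10, had 973 and 1067 RPKM in WT versus 51.9 and 305 in the others (-3.00, SE 0.89, limma adjusted p = 0.650); it was named after its values were seen. In each of these rows the higher library labelled KO lay well below the lower WT library.

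On the recovered reads, limma-voom over 9179 genes with at least 20 reads called 5 members lower (background 0.425%) and 0 higher, and before adjustment 25 were lower (background 6.66%) and 0 higher (background 3.48%) at p under 0.05. The calls were Gm22970 (log2 fold change -3.71, adjusted p = 0.00338), Gm26442 (-2.82, 0.00625), Gm22220 (-2.77, 0.0129), Gm26316 (-3.01, 0.0183) and Rnu5g (-2.68, 0.0304). They cover a U5-like, 2 U1-like and 2 U2-like rows, and none was called by limma on the RPKM.

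Of the partners in the tri-snRNP, U5 was the best read. Rnu5g had 76 and 68 reads in WT versus 9 and 36 in the libraries labelled KO, or 1087 and 1244 against 85.5 and 384 RPKM (log2 fold change -2.67, SE 0.82, limma adjusted p = 0.650). Its neighbour Gm25313 had 2174 and 2123 RPKM in WT versus 874 and 2092 in the libraries labelled KO (-0.67, SE 0.72, limma adjusted p = 0.768). The groups were far apart for Rnu5g and nearly touched for Gm25313.

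The balance within this pair does not depend on the library size. It may depend on how reads that match several rows were counted, since each of the 2 rows had 12 distinct stretches of 87. Of the reads on the pair, Rnu5g took 33.3% (95% Wilson interval 27.5 to 39.7%) and 37.0% (30.3 to 44.1%) in WT. In the libraries labelled KO it took 8.91% (4.76 to 16.1%) and 15.5% (11.4 to 20.7%). The mean was 35.1% ± 2.56 (SD, n = 2) in WT and 12.2% ± 4.67 (SD, n = 2) in the others, and the exact permutation test gave p = 0.33, the smallest that 2 against 2 libraries allow.

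The same ratio for the U1 pair, Gm24305 in the sum of Gm24305 and Gm22513, was 4.66% (4.08 to 5.31%) and 3.89% (3.05 to 4.93%) in WT versus 3.04% (2.44 to 3.78%) and 1.06% (0.635 to 1.78%) in the libraries labelled KO. For the U5 pair on chromosome 4, Gm23143 took 29.3% (23.1 to 36.5%) and 50.0% (37.1 to 62.9%) of its sum with Gm25099 in WT versus 21.6% (15.3 to 29.6%) and 25.8% (16.6 to 37.9%) in the others. The groups did not overlap in either pair, but the intervals of their nearest libraries did, and the exact permutation p was 0.33 in both. These balances may also depend on the counting of shared reads. Gm24305 had 26 and Gm22513 21 distinct stretches of 135, and Gm23143 had 25 and Gm25099 34 of 87. The pairs on chromosomes 9, 12 and 4 and the U4 pair were the 4 pairs of neighbours of 1 class within 50 kilobases in which both rows had at least 20 reads, and the adjusted p over the 4 was 0.444 for the first 3.

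The 2 U4-like rows lie 654 bases apart. Gm24265 had 12 and 21 reads in WT versus 6 and 11 in the libraries labelled KO, and Gm24407 had 8 and 10 against 3 and 6. In RPKM both libraries labelled KO were below both WT libraries for each row, with log2 fold changes of -1.63 (SE 0.63) and -1.73 (SE 0.57), limma adjusted p = 0.672 and 0.665. Gm24407 took 40.0% and 32.3% of the pair's reads in WT versus 33.3% and 35.3% in the others, so the balance of this pair overlapped.

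The snRNAs particular to the minor spliceosome had few reads, as U4 and U6 did. Rnu12 had 21 and 1 reads in WT versus 13 and 4 in the libraries labelled KO, or 231 and 14.1 against 94.9 and 32.8 RPKM, and its log2 fold change of -0.05 (SE 1.30) was far smaller than its error. Gm25541, the U6atac-like row, had 48 and 19 reads in WT versus 23 and 4 in the others, or 632 and 320 against 201 and 39.3 RPKM (-2.32, SE 0.87, limma adjusted p = 0.672). It was named after its values were seen, as the one U6atac-like row with more than 1 read. The U11-like rows had 7 and 1 reads in WT versus 5 and 7 in the libraries labelled KO, so no difference was detectable at this depth. The U6-like rows had 4 and 2 against 3 and 7 reads, and the U7-like rows 1 and 4 against 1 and 1.

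Summed by class, the snRNAs came to 23198 ± 6068 RPM, which are reads scaled to the deposited library size but not to length, in WT (mean ± SD, n = 2) and 11086 ± 1392 in the libraries labelled KO. U1-like rows stood at 17471 ± 7469 against 8685 ± 35.2 and U2-like rows at 4907 ± 1606 against 1968 ± 1366. U5-like rows stood at 667 ± 171 against 374 ± 71.1. In these 3 classes both libraries labelled KO lay below both WT libraries, at the smallest exact permutation p of 0.33 (adjusted 0.50 over 9 classes). As a share of all reads, the groups overlapped in each of the 3. The U6atac-like rows behaved likewise. The U4-like rows, with 77 reads, lay apart on both scales, with 0.00308% and 0.00483% of all reads in WT versus 0.00128% and 0.00261% in the libraries labelled KO, at the same p. Their nearest libraries held 20 reads (first WT) and 17 reads (second labelled KO), so the gap as a share rests on very few reads. The U7-like rows, with 7 reads, also lay apart on both scales.

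By length, which the table gives for every row, the 82 unnamed members longer than 150 bases came to 20218 ± 5086 RPM in WT and 9255 ± 1023 in the libraries labelled KO (mean ± SD, n = 2). The 25 longer than 120 and up to 150 bases came to 2222 ± 735 and 1413 ± 321, and the 22 of 100 to 120 bases to 599 ± 241 and 379 ± 29.4. The log2 ratios of the means were -1.13, -0.65 and -0.66. Each of these 3 classes had the exact permutation p of 0.33 (adjusted 0.40 over 6 classes), and in each the groups overlapped as a share of all reads.

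**Figure D4:**
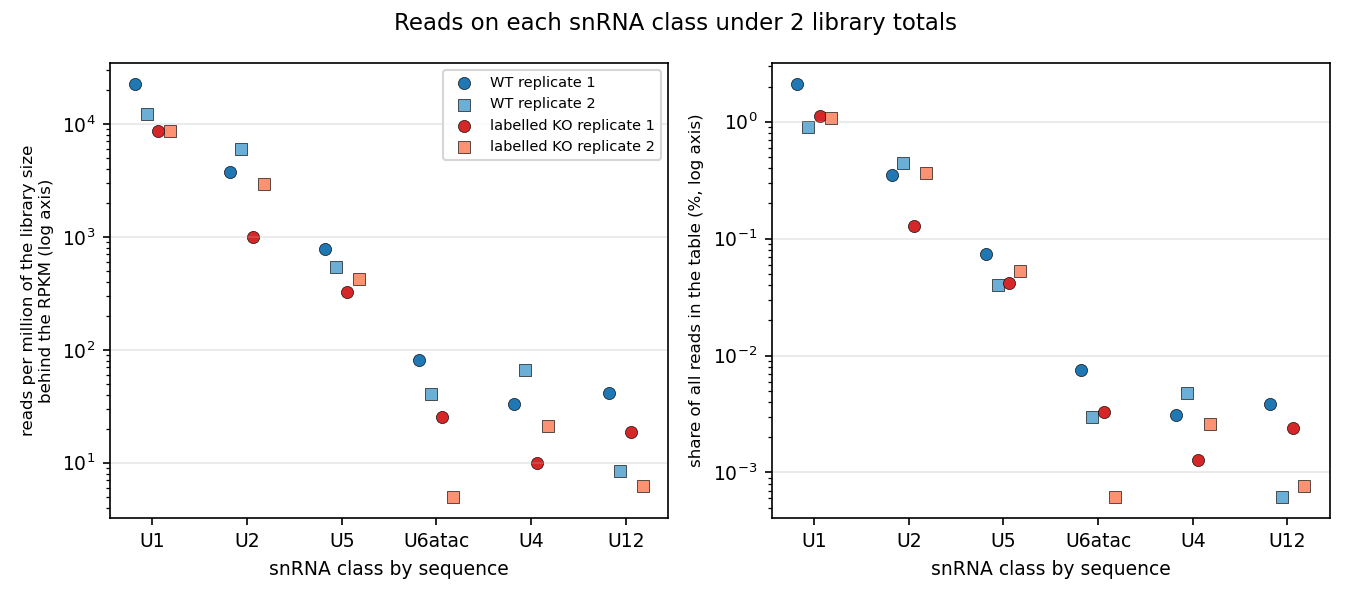
Reads on 6 snRNA classes, placed by sequence, in each of the 4 libraries, in RPM on the library size behind the RPKM (left) and as a share of all reads in the table (right), both on log axes. Blue marks are WT and red marks the libraries labelled KO. For U1, U2, U5 and U6atac the groups lie apart on the left and overlap on the right, for U4 they lie apart on both, and for U12 they overlap on both.

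Within a class, the shares of some copies overlapped between the groups and those of others lay apart. Of the 50 members with at least 20 reads, 15 had a lower share of their class's reads in both libraries labelled KO than in both WT libraries, 8 had a higher share, and in 27 the groups overlapped. The 27 include Gm25541, with 98.0% to 100% of the U6atac-like reads in every library, and the 2 U4-like rows, whose shares mirror each other. Genes outside the family have no such share, so no background stands beside these counts. Gm22970 took 7.39% and 13.5% of the U2-like reads in WT versus 3.19% and 1.43% in the libraries labelled KO, whereas Gm25360 took 68.4% and 64.1% against 72.1% and 75.4%. Gm26442 took 1.23% and 1.38% of the U1-like reads in WT versus 0.380% and 0.315% in the others, whereas Gm22456 took 8.25% and 9.30% against 10.3% and 15.4%. Shares within a class are tied to each other, so a lower share of some copies raises the rest.

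**Figure D5:**
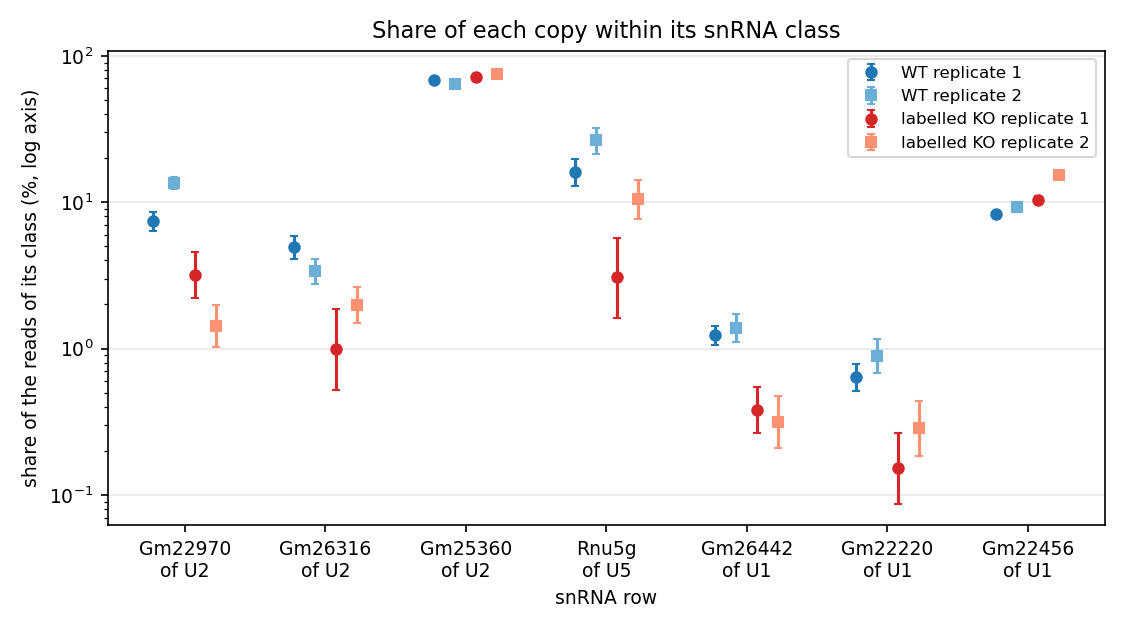
Share of the reads of its snRNA class taken by 7 copies in each library (percent, log axis), with 95% Wilson intervals that cover counting error only. Gm22970, Gm26316, Rnu5g, Gm26442 and Gm22220 have lower shares in both libraries labelled KO than in both WT libraries, and Gm25360 and Gm22456 higher ones.

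The proteins that bind, build and mature snRNAs were read in the same libraries from a list of 109 genes, of which 103 were tested. Limma called 0 of them in either direction after adjustment, as did limma-voom, and before adjustment limma put 0 lower and 3 higher at p under 0.05 (background 4.46% and 2.86%). Their median log2 fold change was 0.39, with 29 below and 74 above 0. Of all tested genes 50.0% lay below 0, with a median of 0.00026. Of protein-coding genes with at least 20 reads 45.9% did, with a median of 0.064. With the same sum of reads in each library, 29 were higher before adjustment (background 14.8%), and the median was 0.90 beside 0.47 for all genes.

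The 3 were Snrpe, a protein of the Sm ring that encircles most snRNAs, Phf5a, a subunit of the SF3b complex of the U2 particle, and Gemin2, which holds Sm proteins during assembly by the SMN complex. Snrpe had 8.46 and 10.8 RPKM in WT versus 27.3 and 26.2 in the libraries labelled KO (log2 fold change 1.39, SE 0.38, limma adjusted p = 0.635). Phf5a had 2.30 and 8.82 against 16.8 and 13.7 RPKM (1.51, SE 0.59, limma adjusted p = 0.672). Gemin2 had 1.37 and 0 against 3.20 and 6.15 RPKM, from 2 and 0 against 7 and 12 reads (1.83, SE 0.62, limma adjusted p = 0.668).

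By role, the U2 proteins had a median log2 fold change of 0.62 over 15 genes, with 13 above 0, and the Sm ring 0.73 over 7 genes, with 6 above 0. The U1 proteins had 0.45 over 8 genes and the Lsm ring, which binds U6, 0.59 over 7. The U4/U6 and U5 proteins had 0.33 over 17 genes, the proteins of snRNA transcription, 3′ end formation, export and Sm assembly 0.17 over 39, the minor spliceosome -0.03 over 8 and U7 -0.29 over 2.

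None of the best read genes of the 8 roles was called. Prpf8, the core protein of the U5 particle, had 32.5 and 27.3 RPKM in WT versus 64.9 and 39.8 in the libraries labelled KO (log2 fold change 0.75, SE 0.45), and Snrnp70, the U1-70K protein, had 6.97 and 10.3 against 18.4 and 14.5 RPKM (0.87, SE 0.40). Snrpb, an Sm protein, had 47.8 and 64.4 against 49.7 and 50.1 RPKM (-0.15, SE 0.43), and Strap, of the SMN complex, 25.8 and 28.2 against 21.8 and 27.6 RPKM (-0.13, SE 0.40). Sf3b6 of the U2 particle had a log2 fold change of 0.58 (SE 0.78), Lsm4 of the Lsm ring 0.53 (SE 0.93), Snrnp25 of the minor spliceosome -0.09 (SE 0.50) and Lsm10 of the U7 particle -1.20 (SE 0.71). The limma adjusted p of these 8 genes lay between 0.676 and 0.964.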

How the data were processed

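The samples were 4 libraries, mapped to WT or KO from their titles, 2 of each. The titles read Polysome-Seq, and the extract protocol describes ribosome profiling. According to the study's methods and the labels, the authors removed low-quality, rRNA and tRNA reads, mapped the rest with TopHat2 (mm10, Ensembl 97) and counted genes with HTSeq. The deposited values are RPKM that the authors computed. Each value times gene length was a whole multiple of a single step per library (100% of values, tolerance 0.01 read), which gave the read counts.

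The main test was limma 3.58.1 (R 4.3.3, trend=TRUE), run with a pseudocount of 1 on the log2 of the RPKM of all genes averaging 1 RPKM or more, with Benjamini-Hochberg adjustment over all of them. Fold changes are on this scale, which understates the change of genes of low RPKM, but 1 read on a short gene is worth several RPKM, so rows with 0 reads in a group have large fitted values. The script was checked on simulated data, where limma on this scale made false calls, all on genes with fewer than 20 reads. Limma-voom left such genes out. Classes came from the best alignment to the named snRNA genes (Biopython 1.88, score of at least 25 and clearly above the next class), with U4 and U6atac found by the letters TTTGCGC and GAAAGGA near the 5′ end of the RNA strand. Some sequences are not reported here. Class sums, pair ratios and shares used exact permutation tests.

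The members, lists and tests were chosen with earlier results of these data known. Members were named where the row's name tells the snRNA, for the 10 highest means, for the 5 lowest p among rows with at least 20 reads, where called, and next to the threshold. Protein genes were named for the highest mean in each of 8 roles and for an unadjusted p under 0.05, up to 3 a direction. Any other name was added after its values were seen.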

Additional observations from a re-analysis of the deposited data

How the results depend on the processing

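The median log2 fold change of the snRNA members stayed below 0 in each setting tried, between -1.57 and -0.79 when a library was left out in turn, and at -0.81 with the same sum of reads in each library (-0.77 with at least 20 reads as well, a setting added after seeing the data). The calls did not hold. After adjustment, limma called 0 members lower with a pseudocount of 0.1 or with genes of any level above 0. The same held where the mean had to reach 5 RPKM, with at least 20 reads and with trend=FALSE. The count was also 0 with the same sum of reads (also with at least 20 reads), while limma-voom called 5. Fits with a library left out hold 1 library in a group. They take the spread from the other group alone, so they do not test the adjusted calls. Before adjustment, the members lower at p under 0.05 numbered 30 in the main analysis (4.46% of all genes tested), 14 with the same sum of reads (1.50%), 10 with at least 20 reads as well (1.43%) and 22 to 37 with a library left out (1.98% to 6.96%). Those higher numbered 0 where the mean had to reach 5 RPKM (3.23% of all genes), with at least 20 reads (4.01%, and 20.3% with the same sum of reads) and by limma-voom (3.48%), and 4 to 13 with a library left out (13 without KO replicate 2, 7 without WT replicate 1 or KO replicate 1), beside 1.80% to 7.12% of all genes.

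With the replicate number as a block, 0 members were called lower, and 1 protein gene was lower at p under 0.05 before adjustment. Same-numbered libraries deviated with a correlation of 0.06 over genes, so the numbers were not treated as pairs.

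Protein genes higher before adjustment numbered 5 with every gene above 0 (2.13% of all genes), 6 by limma-voom (3.48%), 29 with the same sum of reads (14.8%), 31 with at least 20 reads as well (20.3%) and 1 to 17 with a library left out (17 without WT replicate 2, where 7.12% of all genes were higher), and those lower 0 to 2. Their median was 0.90 with the same sum of reads, 0.86 with at least 20 reads as well and 0.18 to 0.41 with a library left out.

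With the same sum of reads, the log2 fold change turned positive for Rnu12 (0.54), Gm22456 (0.20), Gm22155 (0.13), Gm23510 (0.29), Snrpb (0.45), Snrnp25 (0.46) and Strap (0.46), and at least 20 reads did not alter these values. With a library left out, values ran from -2.02 to 1.92 for Rnu12, from -0.82 to 2.56 for Gm22739 (negative only without WT replicate 2) and from -0.12 to 0.76 for Eif5a (negative only without WT replicate 1). They ran from -0.48 to 1.65 for Sf3b6, from -0.82 to 1.88 for Lsm4, from -0.36 to 0.059 for Snrpb, from -0.67 to 0.49 for Snrnp25 and from -0.30 to 0.036 for Strap. The snRNA share difference of -0.57 percentage points became 0.48 of the reads on genes that do not code for protein, and 0.014 without WT replicate 1 (-1.16 to 0.014 over all 4 omissions). The summed Rnu12 signal ran from -1.90 to 2.18, the U12-like from -2.01 to 0.55 and the U11-like from -0.71 to 1.74, and the U11-like ratio was -0.17 without its most read row. Limits are the 2 libraries per group and the read depth, since 84 of 134 members had fewer than 20 reads. The cause of these shifts was not tested.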
